A study of Mus musculus with 11 samples.

Results

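The genes described here encode the proteins of the cytosolic ribosome, the particle that translates messenger RNA in the cytoplasm. They were taken by name: every row whose symbol begins with Rpl, Rps or Rplp followed by a number, with an optional letter and further digits, plus Rpsa. The rule found 85 rows of 16576 over the 3 deposited tables. There were 85 of 16507 in the table of adult against perinatal cells, 84 of 14267 in the table of cells labelled Sca1-negative against Sca1-positive, and 84 of 14910 in the Igf1r knockout table. Of these, 84, 83 and 84 passed the filter on low counts. Rps12 was listed in the adult table only, and Rpl3l was the member not tested in the adult and Sca1 tables. By annotation 82 members were protein coding, 2 were processed pseudogenes (Rps12l1 and Rps3a2) and 1 was a transcribed processed pseudogene (Rps4l). Fau and Rpl36al, which also encode ribosomal proteins, fell outside the naming rule.

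The study sequenced RNA of mouse bone marrow cells sorted as stromal cells. The adult group was 3 libraries of wild type cells sorted as PDGFRa+ CD51+. The reference group was 3 libraries of perinatal wild type cells labelled PDGFRa+ Sca1+, without Cre. The third group was 2 libraries of perinatal wild type PDGFRa+ cells labelled Sca1-negative, and the fourth was 3 libraries of cells labelled PDGFRa+ Sca1+ with an Igf1r knockout, titled Cre-positive. PDGFRa and CD51 are surface proteins of mesenchymal stromal cells, Ly6a encodes the surface protein Sca1, and Igf1r encodes the receptor for insulin-like growth factor 1. Cre went with the deletion in all knockout libraries, so the 2 cannot be told apart. The promoter that drives Cre, the ages in days and whether libraries came from separate animals were not given in the labels, so p-values measure only the spread between these libraries.

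A ribosome has a small 40S subunit, which holds the messenger RNA and decodes it, and a large 60S subunit, which joins amino acids. The P stalk proteins Rplp0, Rplp1 and Rplp2 form an arm of the large subunit that recruits elongation factors. Ribosomal protein mRNAs begin with a terminal oligopyrimidine (TOP) tract, and their translation is controlled by mTORC1, a kinase complex that growth factors such as IGF1 activate through their receptors. Mammalian genomes also hold many processed pseudogenes of these genes, which are intronless copies made by reverse transcription of the mRNA. A short read from a copy cannot be told from a read of the gene where both sequences are equal along the whole read.

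Coding sequences of the members were compared with all annotated transcripts of GENCODE M21 on GRCm38 (the build the submitters name as mm10), in windows of 50 bases. Of the 85 members, 82 shared at least 1 window with a transcript of some other gene, and 63 shared one with another gene listed in the tables. For 28 members every window was shared. The tables listed 162 such copy genes: 139 processed pseudogenes, 12 transcribed processed pseudogenes, 10 protein-coding genes and 1 lincRNA. The copies are shown because several of the largest differences below lay in genes with an exact copy. Rps6, the S6 kinase substrate of the small subunit (chr4:86854660-86857412, minus strand), and the pseudogene Rps6-ps4 (chr2:75191073-75191822, minus strand) were equal at all 750 coding bases, of which the first 150 read:
Rps6: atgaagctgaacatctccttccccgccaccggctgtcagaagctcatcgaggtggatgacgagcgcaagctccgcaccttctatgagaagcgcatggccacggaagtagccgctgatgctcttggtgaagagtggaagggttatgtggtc
Rps12, a small subunit protein (chr10:23785183-23787275, minus strand), and Rps12l1 (chr7:56014016-56014414, plus strand) were equal at all 399 bases, of which the first 120 read:
Rps12: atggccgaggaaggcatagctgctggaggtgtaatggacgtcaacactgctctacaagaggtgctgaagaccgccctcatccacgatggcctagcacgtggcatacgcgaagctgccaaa

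Other exact pairs were Rps16 and Rps16-ps2 (441 bases), Rpl28 and Rpl28-ps1 (414 bases), and Rps13 and Rps13-ps2 (all 453 bases compared). Rps27 (chr3:90212522-90213651, minus strand) and the protein-coding Rps27rt (chr9:114982366-114982739, minus strand) were equal over all 255 bases. Rps27l (chr9:66946086-66949516, plus strand), a paralog of Rps27 known as a p53 target, differed from Rps27 at 61 of 255 bases and shared no run longer than 11 bases. The pair shows the contrast with an exact copy, and the capitals mark the bases that differ:
Rps27: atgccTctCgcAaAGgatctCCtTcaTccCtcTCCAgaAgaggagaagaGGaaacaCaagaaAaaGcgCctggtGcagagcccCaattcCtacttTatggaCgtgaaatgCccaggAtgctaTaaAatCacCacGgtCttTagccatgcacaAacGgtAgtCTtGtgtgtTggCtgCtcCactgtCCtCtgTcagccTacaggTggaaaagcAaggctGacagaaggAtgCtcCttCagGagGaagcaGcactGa
Rps27l: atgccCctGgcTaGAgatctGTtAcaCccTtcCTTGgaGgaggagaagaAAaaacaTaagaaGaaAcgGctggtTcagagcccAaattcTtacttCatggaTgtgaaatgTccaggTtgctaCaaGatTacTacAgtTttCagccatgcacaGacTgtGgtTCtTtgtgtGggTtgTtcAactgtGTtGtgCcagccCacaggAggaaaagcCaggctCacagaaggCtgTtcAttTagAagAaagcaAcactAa
Rps3a1 (chr3:86137940-86142702, minus strand) and Rps3a2 (chr14:88123017-88123808, minus strand) differed at 4 of 792 bases. Counted from 1 at the first coding base, with the base of Rps3a1 first, bases 526 to 645 held the differences T534C and A645T, in capitals:
Rps3a1: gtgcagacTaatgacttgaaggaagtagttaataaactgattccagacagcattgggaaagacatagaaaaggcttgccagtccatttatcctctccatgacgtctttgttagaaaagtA
Rps3a2: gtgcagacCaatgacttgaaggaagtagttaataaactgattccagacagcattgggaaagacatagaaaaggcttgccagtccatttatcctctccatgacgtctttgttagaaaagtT
Rps4l (chr6:148354656-148355598, plus strand) matched Rps4x (chrX:102184941-102189394, minus strand) at 629 of 792 bases, with no equal run over 35 bases.

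Total counts were 13412316 to 23782217 per library, so the limit set by 3 counts lay between 0.126 and 0.224 CPM (counts scaled to a common library total). Levels below are CPM that also carry TMM factors, which balance composition between the libraries of a table. Perinatal libraries 2 and 3 recurred in all tables. Of 84 members, 67 and 55 had equal counts in the adult and knockout versions of these libraries, and the largest difference was 106 counts, for Rpl13. Perinatal library 1 was a different library in those 2 tables under the same label, with 0 of 84 members equal. The comparisons therefore share reference libraries. Ly6a counts ran against the Sca1 labels: 10159 and 9112 in the libraries labelled Sca1-negative, and 239 and 145 in labelled Sca1-positive libraries 2 and 3. In the knockout table control 1 had 8624 Ly6a counts and the knockout libraries had 17051, 12936 and 22125. Igf1r counts were 182, 80 and 77 in the knockout libraries and 599, 548 and 444 in the controls. In the adult libraries a list of 15 macrophage markers summed to 24432 to 26406 CPM, against 119 to 211 in the perinatal libraries.

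Members differed widely in level. By the length-corrected TPM that the authors deposited, averaged over libraries of the adult table, the highest members were Rplp1, Rpl41, Rps19, Rps14 and Rps18. Rpl41, whose product is the smallest ribosomal protein, had 2427 ± 128 TPM in adult cells and 6001 ± 860 TPM in perinatal cells (SD, n = 3 each). Rps19, a small subunit protein mutated in Diamond-Blackfan anemia, had 1714 ± 47.0 TPM in adult and 5425 ± 103 TPM in perinatal cells. Rplp1 had the reverse order, with 6165 ± 309 TPM in adult and 2925 ± 443 TPM in perinatal cells. Rps14 had 3139 ± 125 and 3745 ± 646 TPM, and Rps18 had 2077 ± 93.0 and 3148 ± 268 TPM. The order of the leading members thus depended on the group: Rplp1 led in adult cells, Rpl41 and Rps19 in perinatal cells. In adult cells Rpl13a (3275 TPM), Rps12 (2860 TPM), Rps26 (2650 TPM) and Rps15 (2596 TPM) also lay above Rpl41, Rps18 and Rps19.

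The lowest tested members by mean TPM in that table were Rps3a2, Rpl7l1, Rpl31, Rpl5 and Rpl39l. Rpl7l1 and Rpl39l are paralogs of core proteins. Rpl7l1 had 61.0 ± 1.04 TPM in adult and 33.4 ± 6.69 TPM in perinatal cells, and Rpl39l had 32.1 ± 1.71 and 12.2 ± 4.41 TPM (SD, n = 3 each). Rpl31 (33.0 and 53.4 TPM) and Rpl5 (26.9 and 35.3 TPM) encode core proteins of the large subunit, and both had copies in the tables. Their TPM are of the gene without its copies, which held most of the counts of gene and copies together. The copies' share was 95.6% in adult and 84.3% in perinatal cells for Rpl31, and 96.9% and 92.3% for Rpl5. In the Sca1 table Rpl41, Rps19, Rps14, Rps18 and Rplp1 were again the 5 highest, and Rpl12, Rpl31, Rpl5, Rpl7l1 and Rpl39l the lowest. For Rpl12 the copies' share there was 85.3% in labelled-negative and 80.8% in labelled-positive libraries.

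All members together took 2.84%, 3.19% and 2.73% of the counts in adult libraries 1 to 3 and 4.29%, 3.47% and 3.03% in the perinatal libraries of that table. The groups overlapped on the whole total: adult library 2 lay above perinatal library 3. The difference in mean share, adult minus perinatal, was -0.677 percentage points (two-sided exact permutation p = 0.2, smallest possible 0.1). With the 100 most abundant other genes left out of the total, the groups did not overlap (3.50% to 4.07% in adult, 4.30% to 5.82% in perinatal libraries), and the difference was -1.26 points (two-sided exact permutation p = 0.1). With the copy genes added, the adult share was 3.40% to 3.98% and the perinatal share 3.65% to 5.19%. Fewer cells of a type and less RNA per cell cannot be told apart in bulk libraries.

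**Figure D1:**
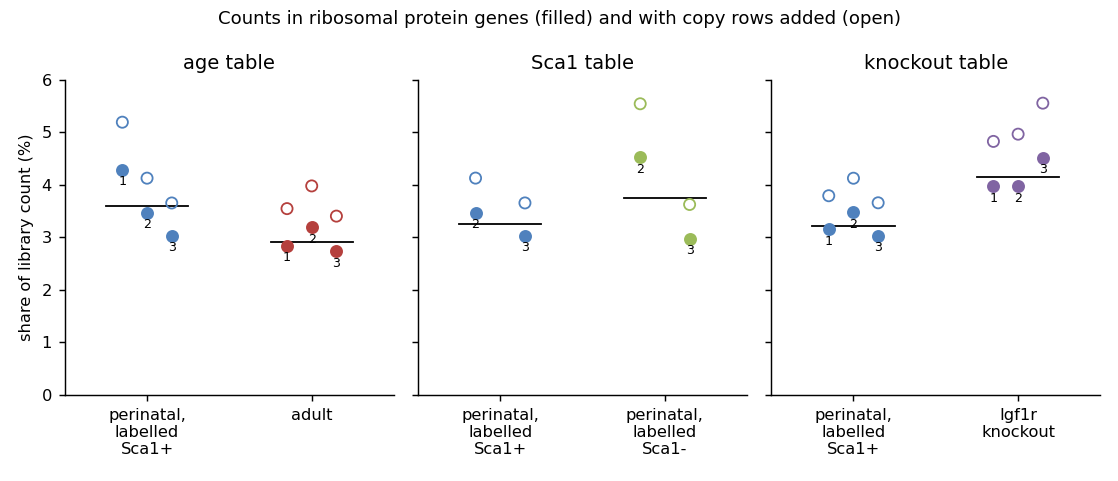
Share of each library's counts (percent, vertical axis) held by the ribosomal protein genes, in the 3 tables. Filled points are the members, open points the members plus their copies, lines the group means and numbers the replicates. On the whole total, as drawn, adult and perinatal libraries overlapped (2.73% to 3.19% and 3.03% to 4.29%), while the knockout libraries (3.97% to 4.52%) all lay above their controls (3.03% to 3.47%).

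The first comparison asked how adult PDGFRa+ CD51+ cells differ from perinatal cells labelled PDGFRa+ Sca1+. Of the perinatal libraries, 2 and 3 were low in Ly6a. Macrophage markers summed far higher and stromal markers far lower in the adult libraries. Age, sort gate and cell make-up therefore cannot be told apart. Of 84 members tested, 13 rose, 42 fell and 29 did not pass the test in adult cells. This was edgeR's quasi-likelihood test at a Benjamini-Hochberg adjusted p of 0.05 over all genes tested. Over all 13757 genes tested, 37.4% were called higher and 39.7% lower, so most genes differed in this comparison. The members' median log2 fold change was -0.49, against -0.06 over all genes. By this fit 60 of the 84 members were below 0. The deposited TPM had the reverse majority: most members had a higher mean TPM in adult than in perinatal cells. The TPM were not tested between groups, so the direction for the members as a set depends on the measure. Without TMM scaling the median of all genes was 0.21, and 5907 genes were called higher and 4740 lower in place of 5142 and 5468. The members then split into 19 higher and 34 lower, where 42.9% and 34.5% of all genes were called. Without perinatal library 1, 20 members were called higher and 41 lower (39.3% and 42.1% of all genes). DESeq2 called 16 higher and 42 lower (32.7% and 36.8% of all genes), and the authors' deposited table has 15 higher and 43 lower (32.6% and 36.6%). The groups did not overlap for 16 members that were higher and 47 that were lower (39.7% and 41.6% of all genes).

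Among 31 small subunit genes 7 rose and 15 fell, and among 43 large subunit genes 4 rose and 23 fell. The fall exceeded 1 on the log2 scale for 23 of the members whose levels were above 0 in both groups. The rise never did so among them: the largest was 0.93. With the copies described above summed into their gene, the fall exceeded 1 in 15 of 82 families. The summed counts of small subunit genes relative to large subunit genes had ratios of 0.843 to 0.854 in adult and 0.820 to 0.839 in perinatal libraries. These ranges were close but did not overlap. The gene sets were unlike: Rps12, at 0 in perinatal libraries, counted as a small subunit gene. Its exact copy Rps12l1, at 0 in adult libraries, did not. The macrophage marker sums given above did not overlap, 13 of 14 tested macrophage markers rose, and the stromal list summed to 3923 to 6343 CPM in adult and 60008 to 95393 CPM in perinatal libraries. Erythroid markers summed to at most 0.267 CPM in adult libraries, where Hba-a1, Hba-a2, Hbb-bs, Hbb-bt and Slc4a1 were at 0, and to 846 to 1856 CPM in perinatal libraries. The part of these other cells in the members' differences was not tested.

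**Figure D2:**
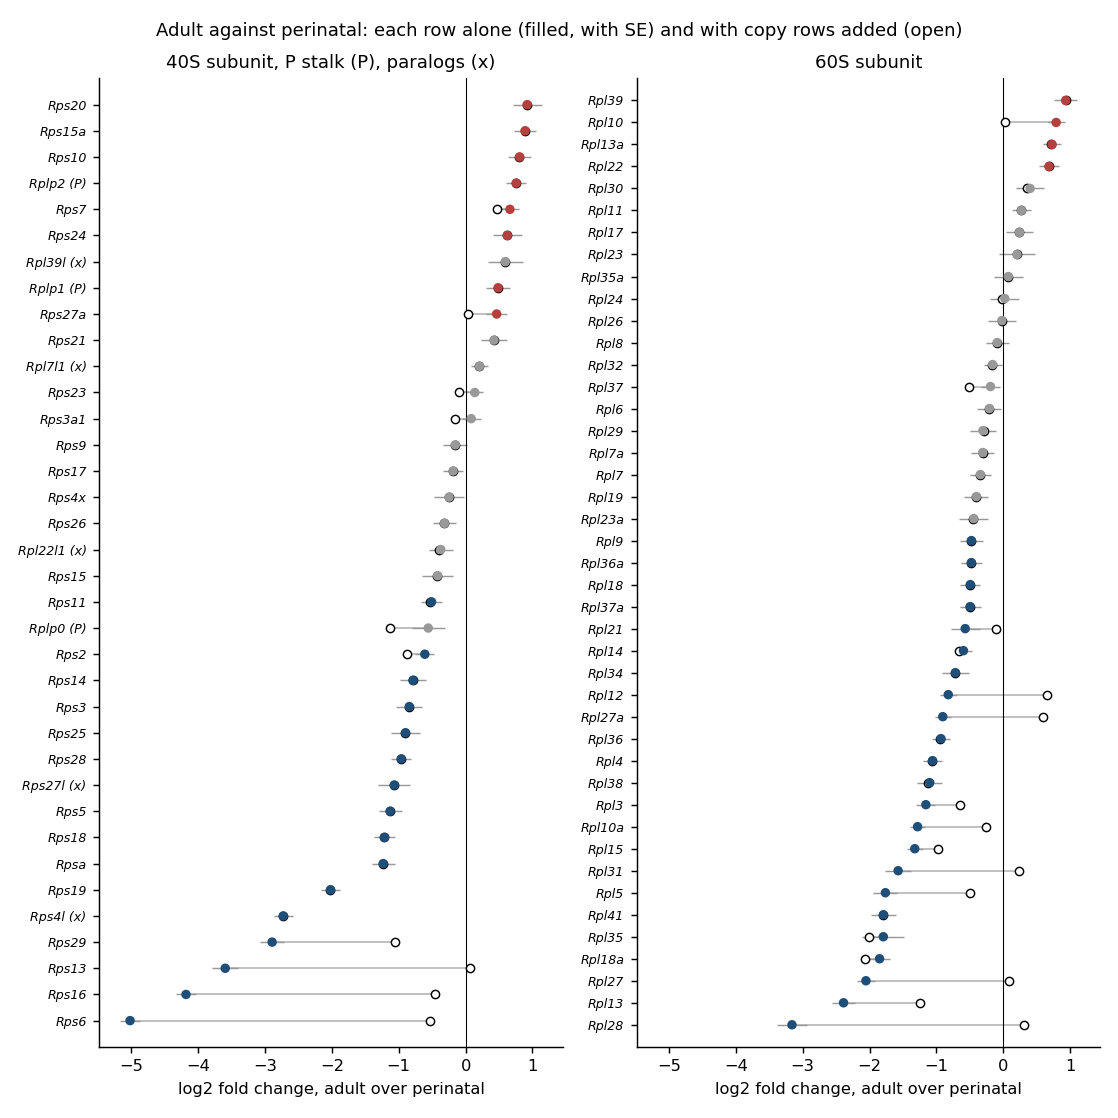
Log2 fold change of adult over perinatal cells for 79 members, ordered by value within the small and large subunit. Filled points with standard errors are the genes alone, red where called higher, blue where called lower and grey where not called by edgeR, and open points have copies added. Members at 0 in a whole group and 1 further member are left out. The falls reach -5.02 (Rps6), the rises 0.93 (Rpl39).

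Among members above 0 in both groups, the largest fall was that of Rps6. Its level was 18.7, 19.1 and 19.6 CPM in the adult libraries and 585, 676 and 600.0 CPM in the perinatal ones. The groups lay far apart, and the log2 fold change was -5.02 (SE 0.15, edgeR adjusted p = 5.02e-07). Its exact copy Rps6-ps4 went the other way, with 504, 521 and 461 CPM in adult and 241, 60.5 and 71.2 CPM in perinatal libraries. Copies held 96.3% of the family's counts in adult cells and 16.0% in perinatal cells (8.23% to 29.2%). With copies added to the gene, an alternative chosen after seeing the data, the fall was -0.54 (edgeR adjusted p = 0.00810).

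Rps16, a small subunit protein, had 14.0, 12.2 and 14.0 CPM in adult and 265, 250.1 and 215 CPM in perinatal libraries. It fell by 4.18 on the log2 scale (SE 0.15, edgeR adjusted p = 7.44e-07). Copies held 96.6% of its family's counts in adult and 54.5% in perinatal cells, and the summed change of -0.46 did not pass (edgeR adjusted p = 0.0514). Rps13, also of the small subunit, had 7.85, 7.72 and 11.6 CPM in adult and 99.5, 115 and 112 CPM in perinatal libraries. Its change of -3.59 (SE 0.20, edgeR adjusted p = 3.75e-06) became 0.07 with copies added (adjusted p = 0.718). Rpl28, a large subunit protein, had 12.3, 15.0 and 13.3 CPM in adult and 159, 99.3 and 105 CPM in perinatal libraries. Its change of -3.16 (SE 0.22, edgeR adjusted p = 1.03e-05) became 0.30 (adjusted p = 0.191). Both therefore lost the fall once their copies were counted with them.

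Rps29, a small zinc-binding protein of the 40S subunit, had 18.1, 25.0 and 22.9 CPM in adult and 187, 147 and 156 CPM in perinatal libraries. The groups did not overlap, and it fell by 2.89 on the log2 scale (SE 0.17, edgeR adjusted p = 5.53e-06). With copies added the value was -1.06 and still passed (edgeR adjusted p = 0.00106). Rps19 fell by 2.02 with and without copies. Rpl13 fell by 2.39 alone and had a summed value of -1.25.

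Summing copies left 82 families, of which 12 rose, 32 fell and 38 did not pass (edgeR), beside 37.4% and 39.7% of all genes tested. Their median was -0.31 and the lowest value was -2.73. Over 56 families with listed copies, copies held most of the counts in 16 families in adult and 15 in perinatal cells, 14 of them in both. The copies' share was at least 25 percentage points higher in adult cells in 7 families and lower in 2. Rpl12 and Rpl27a, named here after their values were seen, fell alone (-0.82 and -0.91) and rose when summed (0.65 and 0.59). How the reads were shared between gene and copy was not given in the sources used here, and its part in these changes was not tested.

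**Figure D3:**
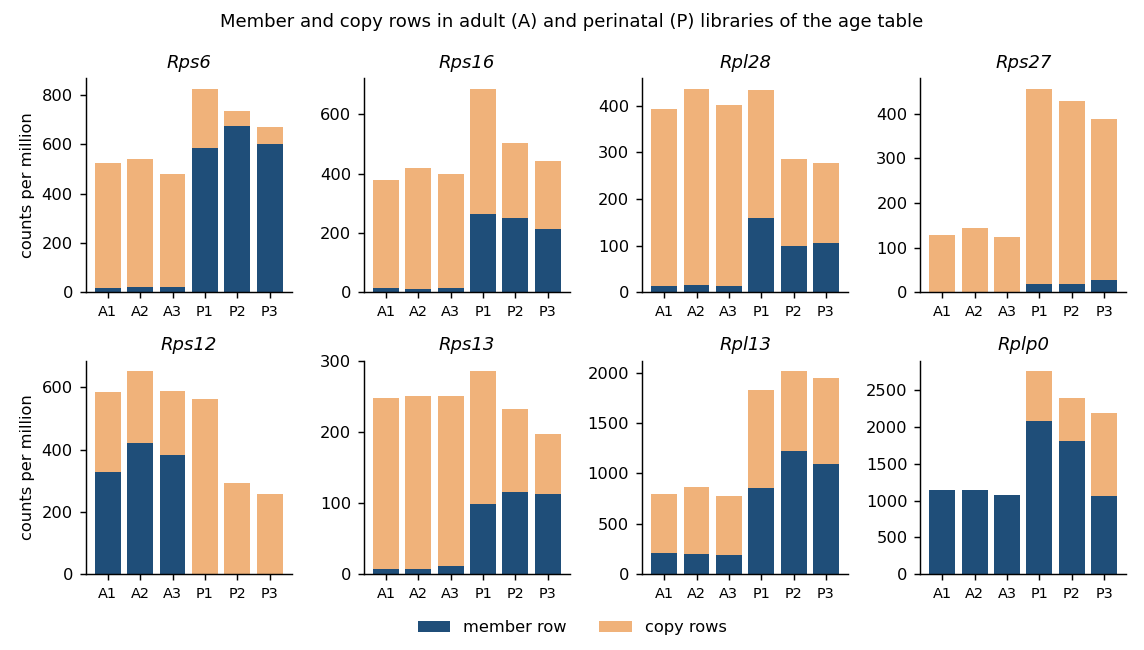
Counts of 8 families in the adult (A) and perinatal (P) libraries, split into the gene and its copies (CPM, vertical axis). Mean Rps6 is 19.2 CPM (A) and 620.4 CPM (P), while its copies hold 96.3% and 16.0% of the family's counts.

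Among the members, 5 were at 0 in every library of a group of the adult table. Rps12 had 6147, 8089 and 5549 counts in adult and 0 in perinatal libraries, so it was at least 1636-fold higher in adult cells. Rps12l1, identical to it in the coding sequence, had 0 counts in adult and 4721, 2395 and 1444 counts in perinatal libraries, at least 982-fold lower in adult. The 2 were thus exchanged between the groups, and the family's summed change of 0.71 did not pass (edgeR adjusted p = 0.0549). Rps3a2 had 0 counts in adult and 1564, 1516 and 951 in perinatal libraries (at least 457-fold lower), while Rps3a1 was at 0.08 on the log2 scale. Rps27 had 0 counts in adult and 241, 306 and 361 in perinatal libraries (at least 104-fold lower). Its copy Rps27rt had 128, 144 and 124 CPM in adult and 438, 410 and 361 CPM in perinatal libraries, so the summed family fell as well, by 1.69 (edgeR adjusted p = 1.74e-05). Rpl3l, a striated muscle paralog of Rpl3, had 0 counts in adult and 6, 8 and 5 in perinatal libraries, near the 3-count limit. Each bound sets the mean CPM of the other group against the highest 3-count limit among the libraries at 0, and covers counting error only. Without these members 12 rose, 39 fell and 29 did not pass, of 80, with a median of -0.48.

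Of the paralogs tested, those that passed fell. Rps4l had 12.7, 14.7 and 13.1 CPM in adult and 78.7, 95.1 and 94.5 CPM in perinatal libraries and fell by 2.73 (SE 0.14, edgeR adjusted p = 2.69e-06). Rps27l had 54.8, 62.8 and 59.2 CPM in adult and 173, 102 and 94.8 CPM in perinatal libraries and fell by 1.07 (SE 0.24, edgeR adjusted p = 0.00398). Neither has a listed copy, so summing copies added nothing to them. Rpl22l1 (-0.37), Rpl7l1 (0.21) and Rpl39l (0.59) did not pass the test.

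Of the 3 P stalk genes 2 rose and none fell by the test on the genes alone. Rplp2 had 319.5, 343 and 333 CPM in adult and 235, 178 and 176 CPM in perinatal libraries and rose by 0.76 (SE 0.15, edgeR adjusted p = 0.00237). Rplp1 had 881, 1005 and 871 CPM in adult and 816, 607 and 546 CPM in perinatal libraries. It rose by 0.49 (SE 0.18, edgeR adjusted p = 0.0411), a call lost without any single adult library, without perinatal library 2 or 3, with upper quartile scaling, and with perinatal library 1 as the only reference, then assumed to vary like the adult libraries. Rplp0, the base of the stalk, had 1140.1, 1144 and 1073 CPM in adult and 2082, 1804 and 1058 CPM in perinatal libraries, which overlapped (-0.56, edgeR adjusted p = 0.0713). With copies, which held 33.6% of its counts in perinatal and 0.0111% in adult cells, it fell by 1.13 (adjusted p = 2.47e-04).

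Rpl39, which lines the exit tunnel of the large subunit, had 117, 135 and 114 CPM in adult and 78.3, 62.0 and 51.0 CPM in perinatal libraries (0.93, SE 0.18, edgeR adjusted p = 0.00177). Rps20 had 317, 370.4 and 319.6 CPM against 236, 162 and 134 CPM (0.92, SE 0.22, adjusted p = 0.00542 by edgeR). In neither gene did the groups overlap. Rps15a rose by 0.89, Rps10 by 0.81, Rpl10 by 0.79, Rpl13a by 0.73 and Rpl22 by 0.68. Rpl10 was at 0.02 with copies (edgeR adjusted p = 0.909).

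Other translation genes were counted by lists, to be read against the 37.4% higher and 39.7% lower among all genes tested. Of 77 mitochondrial ribosomal protein genes, 3 rose and 58 fell, with a median of -1.10 and Mrps28 at -3.09, Mrps11 at -1.94 and Mrpl28 at -1.89. Of 32 ribosome biogenesis genes, 10 rose and 12 fell, near those shares: the snoRNP proteins Nop58 and Dkc1 fell by 2.20 and 1.60, and Heatr1 rose by 3.10. Of 13 genes of RNA polymerase I and rRNA transcription, 3 rose and 5 fell, also near them, with Myc at -3.72. Of 18 further genes with TOP mRNAs, mostly translation factors, 3 rose and 6 fell, neither count above those shares. Their median was -0.08, against -0.06 over all genes. Those that fell included the elongation factor subunit Eef1d (-1.19) and the ribosomal protein gene Fau (-1.37). Of 22 initiation factors, 4 rose and 10 fell, with Eif1 at -2.19. Of 20 mTORC1, S6 kinase and 4E-BP genes, 12 rose and 7 fell, with Tsc1 at 2.85, Rps6ka1 at 3.60 and Eif4ebp1 at -1.64. These were log2 fold changes of called genes in the edgeR test.

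The second comparison set the libraries labelled Sca1-negative against labelled Sca1-positive libraries 2 and 3. No member of 83 passed edgeR's test in either direction, where 4.41% of all genes were called (1.63% higher, 2.79% lower). At an unadjusted p of 0.05, 1 member was higher (Rps12l1) and 0 were lower, against 8.65% and 10.3% of all genes. Rps12, whose coding sequence is equal to that of Rps12l1, was listed in the adult comparison only. DESeq2 called 1 higher (Rps12l1, adjusted p = 0.0173), where it called 3.03% of all genes higher, and the authors' deposited table also has Rps12l1 past the threshold (adjusted p = 0.0171), with 2.83% of its genes higher. Of the members 71 of 83 had a log2 fold change above 0, against 50.9% of all genes, with a median of 0.25 against 0.01. The groups did not overlap for 9 members that were higher and 6 that were lower (24.4% and 25.8% of all genes).

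The size of the difference rested on 1 library. In 81 of 83 members the labelled-negative library 2 was higher than library 3, against 48.2% of other genes. The like-numbered libraries of the labelled-positive group had the same order, with library 2 higher in 76 of 83 members, against 6670 of 13338 other genes. The shares of counts were 4.53% and 2.98% in the labelled-negative libraries and 3.47% and 3.03% in the labelled-positive ones. The mean difference was 0.501 percentage points (two-sided exact permutation p = 1, smallest possible 0.33). Without library 3, edgeR called 54 members higher and 1 lower, where 16.3% and 18.4% of all genes were called. Without library 2 it called 0 higher and 4 lower, where 7.99% and 8.24% were. In both cases the lone library was assumed to vary like the others.

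Rps12l1 had 361 and 153 CPM in the labelled-negative and 135 and 100.1 CPM in the labelled-positive libraries (1.13, SE 0.40, edgeR adjusted p = 0.198). Rpl23, a protein of the 60S subunit that binds Mdm2, had 584 and 285 CPM against 280.0 and 235 CPM (0.76, SE 0.34). Rpl39 had 82.9 and 61.8 CPM against 55.7 and 45.9 CPM (0.51, SE 0.22). In these 3 genes the groups did not overlap, and library 2 was the highest. Rps27l (0.61), Rps3a2 (0.87) and Rpl22l1 (0.22) were above 0, and Rps4l (-0.20), Rpl7l1 (-0.25) and Rpl39l (-0.59) below. None of these passed edgeR's test, nor did Rplp0 (0.21), Rplp1 (0.31) or Rplp2 (0.21).

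Cell type markers did differ here. Of 10 fibroblast progenitor markers 7 rose, all 13 cartilage markers fell and 9 of 11 osteoblast and osteocyte markers fell in the labelled-negative libraries (edgeR). The cartilage list summed to 805 to 896 CPM, against 7405 to 8752 CPM in the labelled-positive libraries. In the translation lists only Rps6ka1, an S6 kinase family gene, passed (-1.75, edgeR adjusted p = 0.0308). The lists' medians were 0.06 for biogenesis, 0.16 for RNA polymerase I, 0.23 for the further TOP genes, 0.13 for initiation factors, 0.03 for mTORC1 genes and 0.23 for mitochondrial ribosomal proteins.

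The third comparison asked how Igf1r knockout libraries differ from controls, all labelled PDGFRa+ Sca1+, although controls 2 and 3 were low in Ly6a. No member of 84 passed edgeR's test, which called only 5 of 13590 genes, or 0.0368%, all of them lower. Levels were nevertheless mostly above the controls. Of the members 76 of 84 had a log2 fold change above 0, against 48.6% of all genes, and the median was 0.47 against -0.03. At an unadjusted p of 0.05, 32 members were higher and 0 lower, against 12.1% and 9.68% of all genes. The knockout and control libraries did not overlap for 46 members that were higher and 1 that was lower, against 14.9% and 14.1% of all genes. DESeq2 called 17 members higher and 0 lower, where it called 3.29% of all genes higher. The authors' deposited table has 13 higher and 0 lower, where 2.92% of its genes are higher.

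The members' share of counts was 3.97%, 3.97% and 4.52% in the knockout libraries and 3.15%, 3.47% and 3.03% in the controls, and the groups did not overlap. The difference was 0.936 percentage points (two-sided exact permutation p = 0.1, the smallest that 3 against 3 allows). Without knockout library 1, edgeR called 26 members higher and 1 lower, where 11% and 10.5% of all genes were called. With control 1, which had high Ly6a, as the only control and assumed to vary like the knockout libraries, it called 0 members and 0 genes in all, and 15 of 84 members had an unadjusted p under 0.05, against 5.63% of all genes. Erythroid markers summed to 158 to 236 CPM in the knockout and 1232 to 1620 CPM in the control libraries, and 4 fell. Cartilage markers summed to 609 to 879 CPM against 1108 to 8501 CPM, and fibroblast progenitor markers to 6394 to 8331 against 1424 to 5878 CPM, with no gene called. Their part in the members' levels was not tested.

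Rps24, a small subunit protein, had 229, 344 and 434 CPM in the knockout and 115, 163 and 139 CPM in the control libraries. All knockout libraries were above all controls (1.27, SE 0.30, edgeR adjusted p = 0.176). Rpl23 had 383, 564 and 966 CPM against 192, 271 and 228 CPM (1.47, SE 0.36, edgeR adjusted p = 0.176). Rpl39 had 70.6, 141 and 95.3 CPM against 39.0, 54.0 and 44.6 CPM (1.15, SE 0.30, edgeR adjusted p = 0.177). Rps27l had 114, 215 and 304 CPM against 81.3, 89.2 and 82.8 CPM (1.32, SE 0.35, edgeR adjusted p = 0.177). In each of these 4 genes the groups did not overlap, and DESeq2 called all 4. Knockout library 3 was the highest of the knockout libraries for 51 of 84 members, against 38.6% of other genes. Library 1 was the lowest for 53 members and the highest for 10, where it was the highest for 41.6% of other genes.

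**Figure D4:**
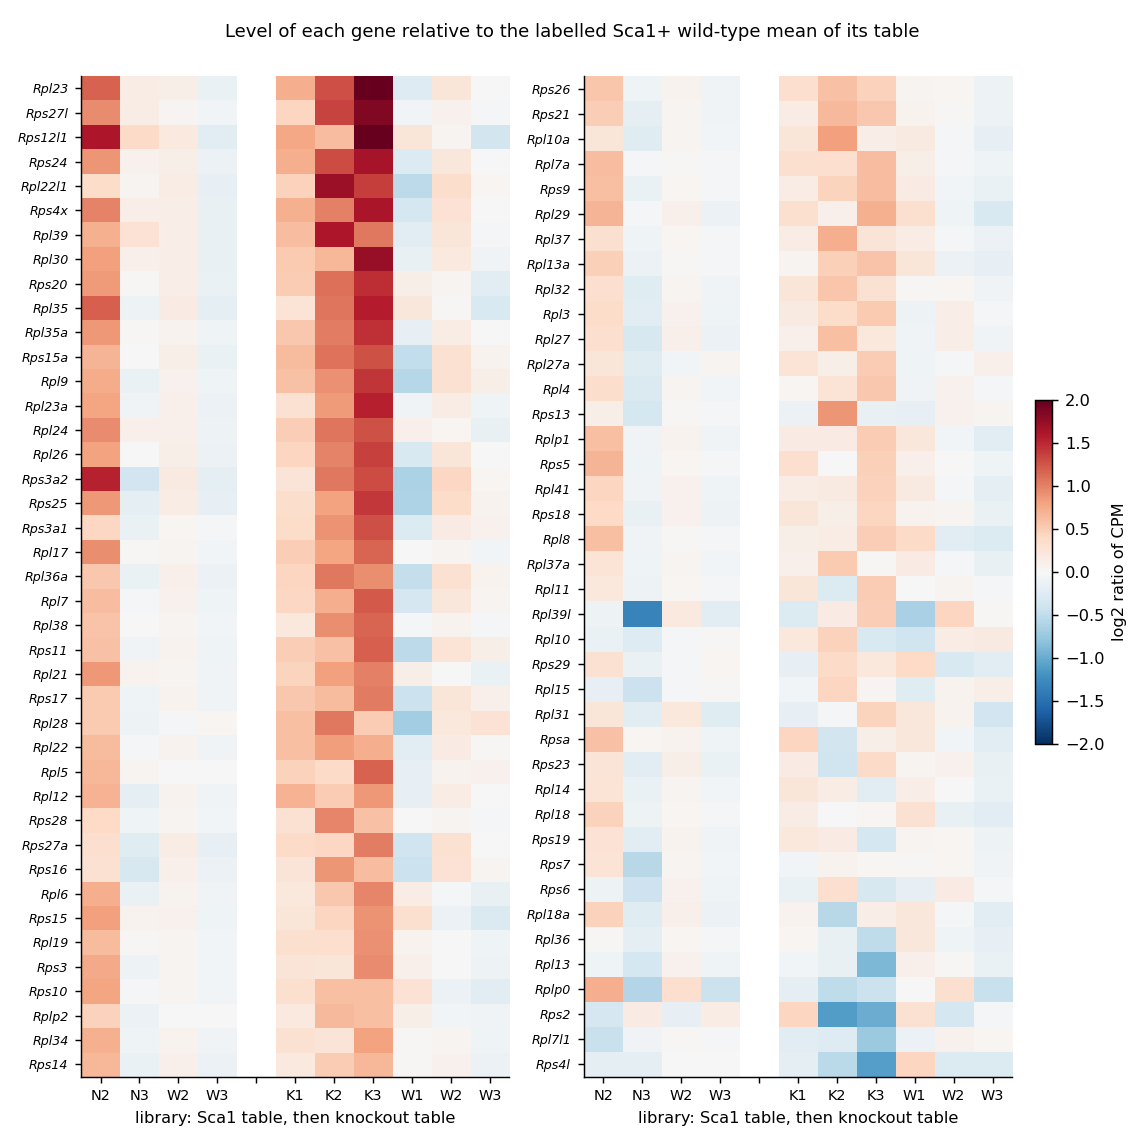
Log2 ratio of each library to the mean of the labelled Sca1-positive (W) libraries of its table for 81 members (lines of the map, ordered by the knockout's log2 fold change), in the Sca1 table (N, labelled negative) and the knockout table (K). Colours saturate at -2 and 2, and Rpl3l, Rps27 and 1 further member are left out. Labelled-negative library 2 is above library 3 in 81 of 83 members, against 48.2% of other genes. Knockout library 3 is the highest knockout library in 51 of 84 members, against 38.6% of other genes.

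Among copies and paralogs, Rps12l1 (1.30), Rpl22l1 (1.27), Rps3a2 (0.94) and Rpl3l (0.94, at most 1.49 CPM in any library) were above 0, Rpl39l was at 0.16, and Rpl7l1 (-0.38) and Rps4l (-0.56) were below. The P stalk genes were at -0.37 (Rplp0), 0.29 (Rplp1) and 0.49 (Rplp2). None passed edgeR's test. Rps2 (-0.37) and Rpl13 (-0.32) were also below 0. The ratio of small to large subunit counts was 0.882 in knockout library 1, 0.781 and 0.780 in libraries 2 and 3, and 0.796, 0.820 and 0.838 in the controls, so the 2 groups overlapped.

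Copies took larger shares in 3 families of the knockout, by at least 25 percentage points. They held 37.3% of the Rps6 family's counts in knockout (20.0% to 63.6%) and 6.39% in control libraries (0% to 10.9%), 34.9% against 1.83% for Rps7, and 33.2% against 2.43% for Rpl11. Rps6 itself was at -0.01 and its family at 0.65. Rps7 went from 0.02 to 0.65 and Rpl11 from 0.19 to 0.79. With copies summed, edgeR called 0 of 83 (0.037% of all genes), and the median was 0.57. At an unadjusted p of 0.05 in that test, 40 were higher, where 12.1% of all genes were higher without summing.

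No gene of the other translation lists passed edgeR's test in the knockout. At an unadjusted p of 0.05, 8 of the 18 further TOP genes were higher and 0 lower, with a median of 0.52, where 12.1% of all genes were higher and 9.68% lower. Eef1a1, the elongation factor that brings aminoacyl-tRNA to the ribosome, had 4799, 5660 and 7441 CPM in the knockout and 3461, 4042 and 3761 CPM in the control libraries (0.67). The groups did not overlap. Of 77 mitochondrial ribosomal proteins 16 were higher and 0 lower at that p (median 0.27), and of 32 biogenesis genes 7 were higher and 2 lower (median 0.39). The mTORC1 list had 3 higher and 1 lower of 20, near those shares (median -0.14).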

How the data were processed

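Bulk RNA sequencing gave counts for 3 adult, 3 perinatal labelled Sca1-positive, 2 labelled Sca1-negative and 3 Igf1r knockout libraries, in 3 tables analysed each by itself. The authors deposited whole-number counts, used as they stand. TPM columns, deposited by the authors, served for levels of genes in the adult and Sca1 tables and were not tested between groups. The knockout table's columns headed tpm hold values on a log2-like scale whose transformation is not given in the sources used here, and were not used. Per the submitters' processing notes, reads were trimmed with Trimmomatic 0.32, mm10 was the build, and DESeq2 was used. Aligner, counter, annotation and strandedness: not given in the sources used here. Log2 fold changes and p-values in the authors' deposited tables were used only where named.

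Each table was fitted with edgeR 4.0.16 (R 4.3.3, limma 3.58.1): filterByExpr, TMM factors, robust quasi-likelihood test without covariates, Benjamini-Hochberg adjustment over all genes tested, and a call at 0.05. DESeq2 1.42.0, other scalings, no filter, a replicate block and leaving out libraries were alternatives. Shares of counts were compared by exact permutation tests. Copies were genes sharing a window of 50 bases with a member's coding sequence. Log2 fold changes of genes at 0 in a group are not bounds, and counts were compared with a limit of 3 counts instead. The method was tested on simulated data.

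The text names the P stalk genes, listed paralogs, members at 0 in a group, up to 8 called members per direction with the largest change, mean log2 CPM of at least 5 and groups that do not overlap (or the 4 with the smallest p), and up to 3 called genes per list. Genes beyond that rule were chosen after their values were seen. The members and lists were chosen with earlier results of these data known. A few named genes that the rule takes are not reported here.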

Additional observations from a re-analysis of the deposited data

How the results depend on the processing

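Counts of called members kept within 1.5 times their value in most alternatives, and the exceptions follow. DESeq2 called 1 member higher in the Sca1 comparison and 17 in the knockout comparison, where edgeR called 0. It called 3.03% and 3.29% of all genes higher in these 2 comparisons. With the replicate number as a block, edgeR called 1 member higher in the Sca1 comparison, 13 higher and 42 lower in the adult comparison, and 0 in the knockout comparison. The shares of all genes called with the block are not given here, so these counts have no background beside them. The labels do not say that the numbers pair the samples. Same-numbered libraries correlated at -0.02, -0.02 and 0.19 in the adult table and 0.19, 0.12 and 0.05 in the knockout table. In these 2 tables not every library correlated best with its own number. In the Sca1 table every library did, at 0.30 against -0.30 for unlike numbers. With 2 libraries per group these values can differ in sign only. The main Sca1 fit had no block, so a difference that goes with the number was not removed. Leaving out 1 library at a time gave 10 to 20 members higher and 35 to 48 lower in adult cells, 0 to 54 higher and 0 to 4 lower in the Sca1 comparison, and 0 to 26 higher and 0 to 1 lower in the knockout comparison. The 20 came without perinatal library 1. The difference in share ran from -0.959 to -0.332, from -0.276 to 1.28 and from 0.755 to 1.06 percentage points. Leaving the 100 most abundant other genes out of the total moved the adult difference in share to -1.26. The Sca1 share was -0.276 without labelled-negative library 2. Summing copies turned Rpl28 to 0.30 and Rps13 to 0.07 on the log2 scale (fitted value 0.065). The cause was not tested. Depth limits members with few counts, such as Rpl3l.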
